A study of Homo sapiens with 9 samples.

Results

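The genes described here are 10 genes that RNA polymerase III transcribes from promoters lying wholly or partly outside the gene: RN7SK, RMRP, RPPH1, RN7SL1, RN7SL2 and the U6 genes RNU6-1, RNU6-2, RNU6-7, RNU6-8 and RNU6-9. They were taken from a list of names, and all 10 were found among the 62700 genes of GENCODE version 44 on 25 sequences of GRCh38. The data were peaks of chromatin immunoprecipitation and sequencing (ChIP-seq) for POLR2A, which forms the catalytic core of RNA polymerase II, in HEK293T cells, a human embryonic kidney cell line. The 3 conditions were a control shRNA in otherwise wildtype cells, knockdown of U2AF1, a splicing factor that reads the end of introns, and knockdown of the RNA and DNA helicase DHX9. Each condition had 2 ChIP replicates, 1 input library and a single deposited list of peaks, so nothing below carries a replicate error. How long and how far either gene was knocked down is not given in the sources used here.

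A gene was counted as having a peak when a peak's summit, its position of highest signal, lay within 1000 bp of the gene's annotated start. A coding transcript start, or coding start, here is the start of any transcript of a protein-coding gene, whether or not that transcript is itself coding. Peaks are described by their fold enrichment, the authors' ratio of signal over background, and by the rank of that value in the list, where rank 1 is the highest. The lists held 2757 peaks in the control, 1730 in the U2AF1 knockdown and 4443 in the DHX9 knockdown. The depth of the libraries is unknown from the lists, and a gene without a peak is one whose signal did not pass the peak caller's threshold there. The labelled cell type was not checked by these lists, since 0 of 6 genes chosen as markers of HEK293 lines and 0 of 6 markers of other cell types had a peak in any of them.

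RNA polymerase III makes short untranslated RNAs. Most of its genes, such as those of tRNAs and of the 5S ribosomal RNA, carry their promoters inside the transcribed sequence. In the U6, 7SK, RNase P and RNase MRP genes the promoter lies upstream instead: a proximal sequence element is bound by the SNAPc complex, a TATA box by TBP with BRF2, and a distal element by the activators POU2F1 and ZNF143. The 7SL genes combine upstream elements with internal ones. The genes of the U1, U2, U4 and U5 RNAs have the same proximal element and no TATA box, and are transcribed by RNA polymerase II. POLR2A is a subunit of RNA polymerase II and not of RNA polymerase III.

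The sequences just upstream of the starts are shown because the external promoter elements were searched for there. Each runs 5′ to 3′ in the direction of the gene, from 80 bases before the start to the first 20 bases of the gene, in hg38. Capitals mark TATA in the proximal window, the letters ACCNTNA of the proximal element, and the cyclic AMP response element TGACGTCA.
RN7SK (chr6:52995541-52995640, plus strand): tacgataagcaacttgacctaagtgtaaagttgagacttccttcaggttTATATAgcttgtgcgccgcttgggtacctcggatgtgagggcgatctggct
RMRP (chr9:35657998-35658097, minus strand): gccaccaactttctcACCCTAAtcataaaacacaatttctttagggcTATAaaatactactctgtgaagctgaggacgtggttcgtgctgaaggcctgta
RPPH1 (chr14:20343388-20343487, minus strand): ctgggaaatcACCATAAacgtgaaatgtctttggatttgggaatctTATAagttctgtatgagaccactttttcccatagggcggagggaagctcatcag
RN7SL1 (chr14:49586500-49586599, plus strand): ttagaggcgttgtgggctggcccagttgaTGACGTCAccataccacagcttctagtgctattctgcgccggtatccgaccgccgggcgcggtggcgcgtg
RN7SL2 (chr14:49862830-49862929, minus strand): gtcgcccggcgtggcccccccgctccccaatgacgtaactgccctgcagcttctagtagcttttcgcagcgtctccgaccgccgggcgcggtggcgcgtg
RNU6-1 (chr15:67840026-67840125, minus strand): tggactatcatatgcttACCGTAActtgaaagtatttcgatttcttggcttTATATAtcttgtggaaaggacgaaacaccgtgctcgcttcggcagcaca
RNU6-2 (chr19:1021442-1021541, plus strand): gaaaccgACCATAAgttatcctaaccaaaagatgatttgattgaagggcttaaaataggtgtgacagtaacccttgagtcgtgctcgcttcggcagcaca

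TATA starting 34 to 22 bases before the start, on the coding strand, was present in 6 of the 10 genes, against 4.69% of the 62690 annotated gene starts in the search and 1 of 17 small nuclear RNA genes of RNA polymerase II. In RMRP it began 33 bases before the start, in RPPH1 34 bases before it, and in RN7SK and RNU6-1 overlapping copies began 31 and 29 and 29 and 27 bases before it. The letters ACCNTNA, starting 75 to 45 bases before the start on the coding strand, were present in 6 genes as well, against 7 of 17 RNA polymerase II small nuclear RNA genes and 1.99% of all gene starts. These 6 were RMRP, RPPH1, RNU6-1, RNU6-2, RNU6-7 and RNU6-8. The octamer ATGCAAAT, searched on both strands from 250 bases before to 50 bases after the start, was found in 6 of the 10 genes, against 9 of 17 RNA polymerase II small nuclear RNA genes and 2.28% of all gene starts. In the 4 U6 genes that held it, it lay 221 to 224 bases before the start, on the opposite strand. TGACGTCA, a palindrome and thus counted once over both strands, was found in RPPH1, 221 bases before the start, and in RN7SL1, 51 bases before it, against 1 of 17 RNA polymerase II small nuclear RNA genes and 1.09% of all gene starts. The letters CCCANNATG, a part of the ZNF143 site, were found in RN7SK and RN7SL1, against 4 of 17 RNA polymerase II small nuclear RNA genes and 4.8% of all gene starts. These matches describe letters in the reference and show no binding. Neither TATA nor ACCNTNA was present in its window in RN7SL1, RN7SL2 or RNU6-9, and RN7SL2 held none of the 5 motifs. Only these exact letters were searched, so a gene without a match may still hold a variant of the element. The 80 bases before the start held TTAAAATA in RNU6-2 and TTTAAATA in RNU6-9, which were not counted as TATA.

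A POLR2A peak was present at 4 of the 10 genes in at least 1 list. The control had 3 of them, RMRP, RPPH1 and RN7SL1, where 4.99% of all annotated gene starts and 11.0% of protein-coding gene starts had one. After U2AF1 knockdown it was RPPH1 alone, with 2.69% of all starts and 5.6% of protein-coding starts. After DHX9 knockdown there were 3, RMRP, RPPH1 and RNU6-2, with 8.07% of all starts and 18.0% of protein-coding starts. With 10 genes the shares are loose: the 95% Wilson interval is 10.8 to 60.3% for 3 genes and 1.79 to 40.4% for 1 gene, both for counting error only. The genes were chosen with earlier results of these data known, and 6 of them have a coding start within 1000 bp. The intervals are therefore no test against the shares of all starts or of protein-coding starts. The other 6 genes, RN7SK, RN7SL2, RNU6-1, RNU6-7, RNU6-8 and RNU6-9, had no peak in any list. In every one of the 23 pairs of a gene and a list without a peak, the nearest summit was at least 12.2 kb from the start.

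**Figure D1:**
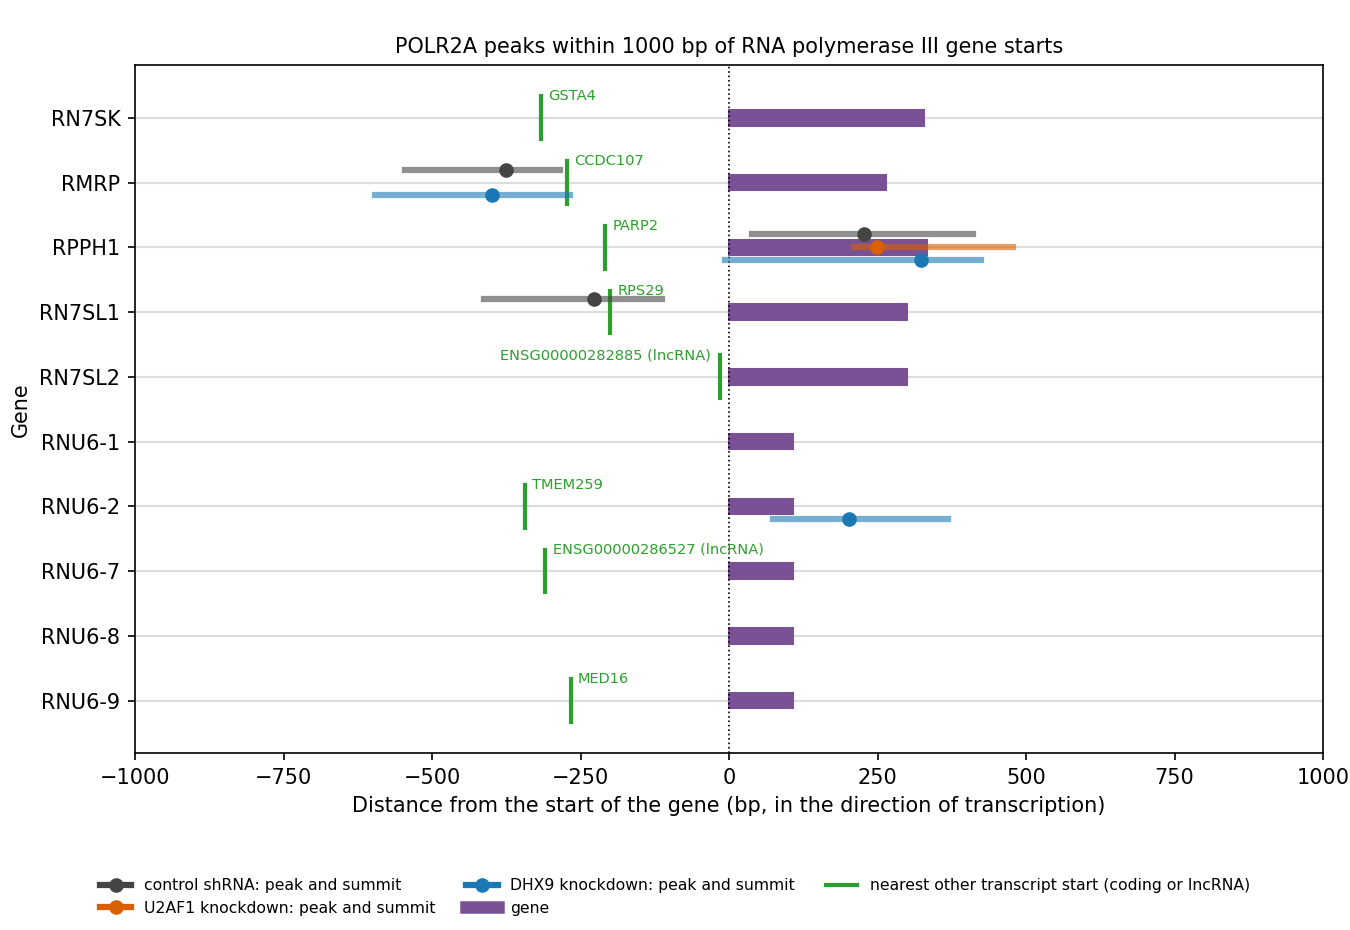
Each row is a gene drawn from its start (0 bp) in the direction of transcription, with its transcribed part in purple, POLR2A peaks as bars with the summit as a dot in the colour of the list, and the nearest start of another coding or lncRNA transcript in green. The peaks of RMRP and RN7SL1 lie upstream at the start region of the neighbouring gene, and those of RPPH1 lie over the gene. That of RNU6-2 covers the last 33 bp of the gene with its summit past the end.

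RPPH1 encodes H1 RNA, the catalytic RNA of RNase P, which trims tRNA precursors. It lies at chr14:20343075-20343407 on the minus strand and was the only gene of the 10 with a peak in all lists. Among peaks with a −log10 q of at least 5 it kept that of the control alone. Of the 6041 gene starts with a peak in any list, 17.1% had one in all 3. The control peak, at chr14:20342997-20343369, ranked 930 of 2757 by its fold enrichment of 4.7. The U2AF1 knockdown peak, at chr14:20342929-20343197, ranked 1357 of 1730 at 3.73-fold. The DHX9 knockdown peak, at chr14:20342982-20343413, ranked 3210 of 4443 at 4.48-fold. The rank thus lay 33.7% of the way down the control list and 78.4% and 72.2% of the way down the U2AF1 and DHX9 knockdown lists. Ranks from lists of different lengths show no change in occupancy.

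All 3 RPPH1 summits lay inside the gene, 228 bp downstream of its start in the control, 249 bp in the U2AF1 knockdown and 324 bp in the DHX9 knockdown list, in a gene of 333 bp. The peaks covered 88.6% and 36.9% of the gene in the first 2 lists and the whole gene in the DHX9 knockdown list. The neighbour is PARP2, which encodes a poly(ADP-ribose) polymerase and starts 208 bp upstream on the opposite strand. Relative to the nearest PARP2 transcript start, the summits lay at -436, -457 and -532 bp, where negative values are upstream, across the region between both starts. Of all summits within 1000 bp of a coding transcript start, some lay 400 bp or more upstream of the nearest one. Their share was 1.77% in the control, 2.12% in the U2AF1 knockdown and 2.1% in the DHX9 knockdown list. These shares include the RPPH1 summits, and the 400 bp limit was not among the settings planned in advance. A lncRNA, ENSG00000259001, starts 278 bp upstream of RPPH1 on the same strand, and the RPPH1 summits lay 506, 527 and 602 bp downstream of its start. Signal of polymerase on RPPH1, on PARP2 and on this lncRNA cannot be told apart in the lists.

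RMRP encodes the RNA of RNase MRP, which acts in ribosomal RNA processing, and lies at chr9:35657754-35658017 on the minus strand. Its control peak, at chr9:35658301-35658562, ranked 2240 of 2757 at 3.14-fold. The DHX9 knockdown peak, at chr9:35658284-35658613, ranked 1588 of 4443 at 5.88-fold. The U2AF1 knockdown list had its nearest summit 600256 bp away. Both peaks left the RMRP gene uncovered, with gaps of 283 and 266 bp. Their summits lay 375 and 399 bp upstream of the RMRP start, over CCDC107, a protein-coding gene of the opposite strand whose 5 annotated starts span chr9:35658290-35658317. From these starts the control summit was between 75 and 102 bp downstream and the DHX9 knockdown summit 99 to 126 bp downstream. Summits at coding starts in general had a median of 25 bp downstream of the nearest start in the control list (quartiles -22 and 59) and 20 bp in the DHX9 knockdown list (quartiles -26 and 63).

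RN7SL1 and RN7SL2 encode 7SL, the RNA scaffold of the signal recognition particle, which brings nascent secretory proteins to the endoplasmic reticulum. RN7SL1, at chr14:49586580-49586878 on the plus strand, had a peak in the control list only, at chr14:49586167-49586468, which ranked 1600 of 2757 at 3.89-fold. This peak ended 111 bp before the gene, and its summit lay 227 bp upstream of the start. It lay over the start region of RPS29, a ribosomal protein gene on the opposite strand, with 4 transcript starts within 1000 bp of RN7SL1 at chr14:49586325-49586380. The summit was between 28 bp upstream and 27 bp downstream of them. The RPS29 starts are starts of transcripts, and no coding gene start as annotated for a whole gene lies within 1000 bp of RN7SL1. RN7SL2, at chr14:49862550-49862849 on the minus strand, had no peak in any list, and its nearest coding transcript start, of NEMF, is 10028 bp away. A lncRNA transcript starts 15 bp upstream of RN7SL2 on the same strand.

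RN7SK encodes 7SK RNA, which with HEXIM proteins holds the elongation kinase P-TEFb inactive. It lies at chr6:52995621-52995948 on the plus strand and had no POLR2A peak in any list. GSTA4, a glutathione transferase gene, starts 317 bp upstream on the opposite strand. The nearest summits were 331167 bp away in the control, 70134 bp after U2AF1 knockdown and 363949 bp after DHX9 knockdown.

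U6 RNA forms part of the catalytic centre of the spliceosome. Of its 5 genes here 1 had a peak, RNU6-2 at chr19:1021522-1021628 on the plus strand, in the DHX9 knockdown list. The peak, at chr19:1021596-1021890, ranked 2444 of 4443 at 5.1-fold. It covered the last 33 bp of the 107 bp gene, and its summit lay 202 bp downstream of the start, past the end of the gene. The coding gene TMEM259 starts 343 bp upstream of RNU6-2 on the opposite strand, so the summit was at -545 bp from the nearest TMEM259 start. RNU6-9 has the same arrangement with MED16, a Mediator subunit gene, starting 266 bp upstream, and had no peak. RNU6-1, RNU6-7 and RNU6-8 had neither a peak nor a coding start within 1000 bp. A lncRNA, ENSG00000286527, starts 309 bp upstream of RNU6-7 on the opposite strand.

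The reference sequence at summits over or next to the small RNA genes is shown, since these peaks lie away from the coding starts. Each line gives 30 bases in the direction of the small RNA gene, in hg38, with the summit base in capitals. The RPPH1 control line lies within H1 RNA. The RPPH1 DHX9 knockdown line covers the 3′ end of H1 RNA and a few bases past it. The RNU6-2 line lies past the gene's end.
RPPH1, control shRNA summit (chr14:20343164-20343193, minus strand): cggatgcctcctttGccggagcttggaaca
RPPH1, DHX9 knockdown summit (chr14:20343068-20343097, minus strand): aattcagactactcTcctccgcccattttt
RNU6-2, DHX9 knockdown summit (chr19:1021709-1021738, plus strand): agtcttcccgtgtccAtctcctgtggcgcc

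In total the genes had 7 peaks over the 3 lists. A transcript of a protein-coding gene started within 1000 bp of the 6 genes RN7SK, RMRP, RPPH1, RN7SL1, RNU6-2 and RNU6-9. All 7 peaks were at genes of these 6. Among them 3 had a peak in the control, 1 in the U2AF1 knockdown and 3 in the DHX9 knockdown list, and among the other 4 genes 0 had one in any list. For all non-coding gene starts in the annotation, 13.0% of the 5321 with a coding start in the window had a control peak, against 0.635% of the 37333 without. The shares were 6.88% and 0.522% in the U2AF1 knockdown list and 20.3% and 0.972% in the DHX9 knockdown list. Of the 7 peaks, 3 left the small RNA gene uncovered and sat at the coding neighbour's start region, the 2 of RMRP and that of RN7SL1. The other 4, of RPPH1 and RNU6-2, overlapped the small RNA gene, and their summits lay more than 400 bp upstream of the coding start, on the far side of the shared upstream region. Which gene's polymerase they record was not tested.

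**Figure D2:**
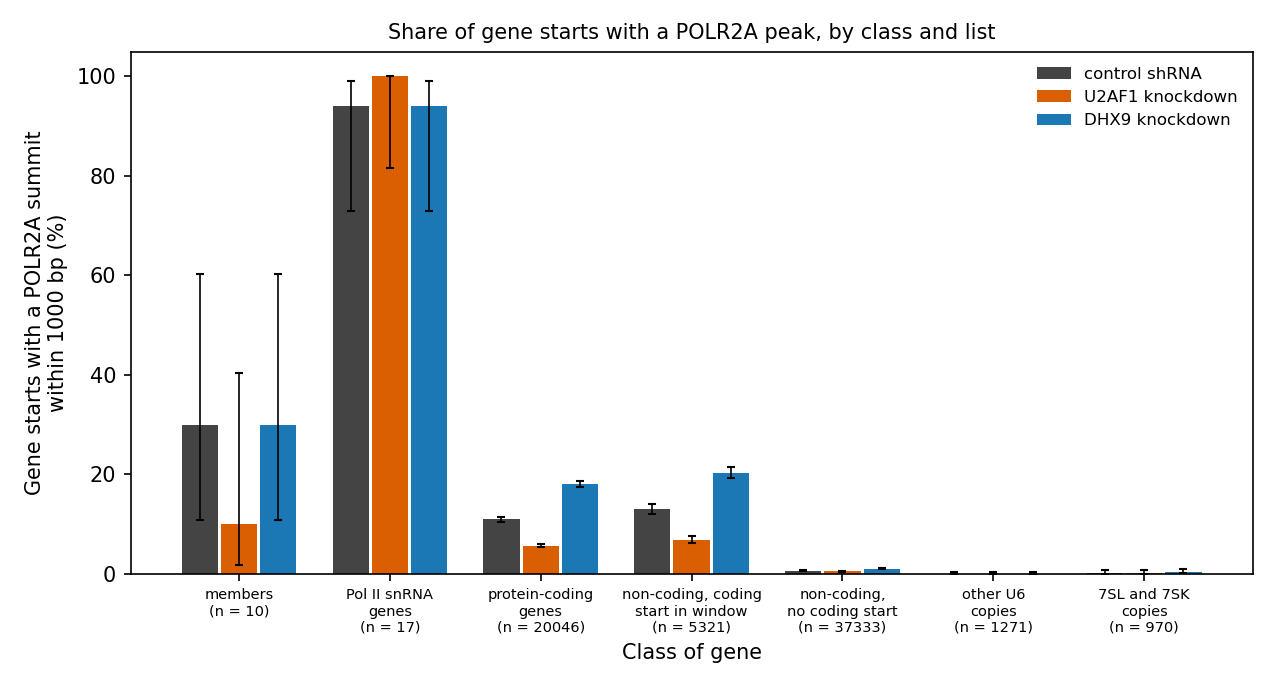
Bars give the percentage of gene starts with a POLR2A summit within 1000 bp in each list, by class of gene, and error bars are 95% Wilson intervals for counting error only. The members stand for 3, 1 and 3 of 10 genes, the RNA polymerase II small nuclear RNA genes for 16, 17 and 16 of 17, and the other U6 copies for 0 of 1271.

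The small nuclear RNA genes of RNA polymerase II nearly all had a peak, close to the top of each list. Of 17 genes of the U1, U2, U4, U5, U7, U11, U12 and U4atac RNAs, 16 had a control peak, and 17 and 16 had one after U2AF1 and DHX9 knockdown. RNU4-1 had none in the control and after DHX9 knockdown. Of the highest peaks at these genes, the lowest had rank 61 in the control, 156 after U2AF1 and 85 after DHX9 knockdown. The best ranks among the RNA polymerase III genes were 930, 1357 and 1588. As shares of the list, the 7 peaks stood between 33.7% and 81.2% of the way down, with a median of 58.0%, and 5 of the 7 were below the middle of their list. Peaks at protein-coding gene starts had a median place of 46.2% in the control, 41.3% after U2AF1 and 45.7% after DHX9 knockdown.

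**Figure D3:**
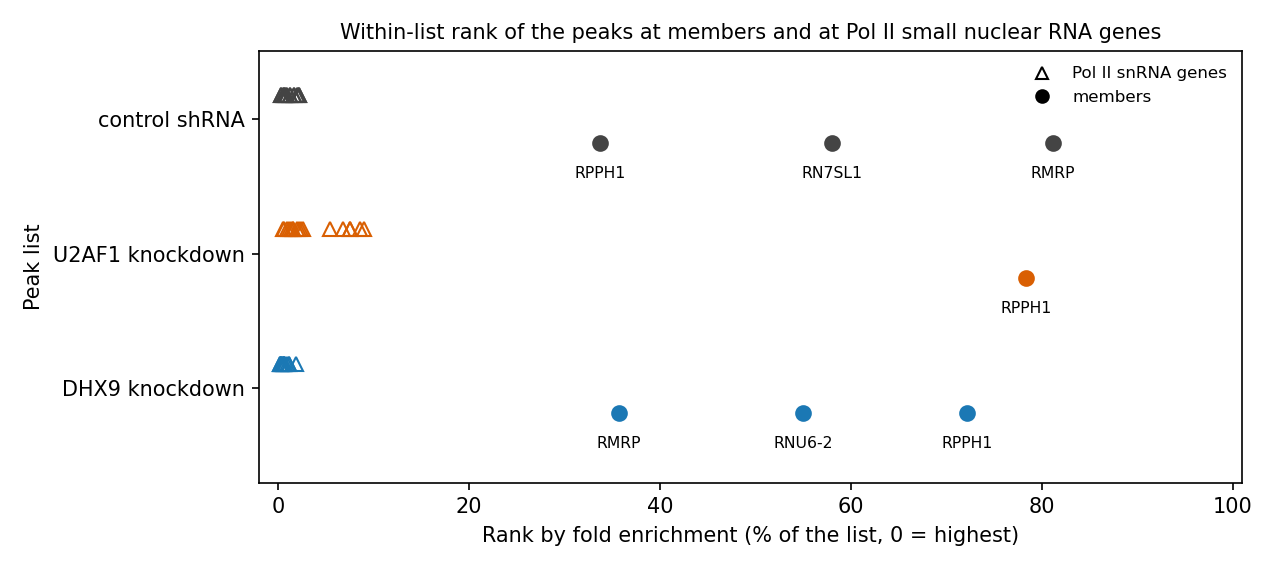
Each point is the highest peak at a gene, placed by its rank in fold enrichment as a percentage of the list's length, for RNA polymerase II small nuclear RNA genes (open triangles) and the RNA polymerase III genes (filled circles). From the control to the U2AF1 and then the DHX9 knockdown, the triangles end at 2.21%, 9.02% and 1.91%, and the circles begin at 33.7%, 78.4% and 35.7%.

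The summits of the RNA polymerase II small nuclear RNA genes all lay downstream of the gene's end. The distances of these summits from the start ran from 177 to 592 bp in the control (median 239). They ran from 168 to 593 bp in the U2AF1 knockdown (median 406) and from 209 to 581 bp in the DHX9 knockdown list (median 417). The RNU6-2 summit of the DHX9 knockdown list, at 202 bp, was past the end of its gene. It lay below the range of 209 to 581 bp of that list. The RPPH1 summits, at 228 to 324 bp, were within the longer RPPH1 gene. The RMRP and RN7SL1 summits were upstream of the start.

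The lists were then set side by side for the genes with a peak. They share the control list, so the comparisons are not independent. Of the 3 control genes, 2 had no peak in the U2AF1 knockdown list, RMRP and RN7SL1, where 63.5% of all gene starts with a control peak had none. The same 3 genes lost 1, RN7SL1, in the DHX9 knockdown list, where 25.0% of gene starts with a control peak had none. Of the 3 DHX9 knockdown genes, 1, RNU6-2, had no control peak, against 53.6% of all gene starts with a DHX9 knockdown peak, and 2, RMRP and RNU6-2, had no U2AF1 knockdown peak, against 72.9%. With 3 genes, these counts are too few to be set apart from the shares over all gene starts. The RMRP control peak had a −log10 q of 3.32, where the list's median was 7.59, and the RPPH1 peaks of the knockdowns had 3.21 and 3.12, against medians of 5.86 and 6.26. The control peaks are named as those of replicate 1, so that list may rest on fewer libraries than its labels give. Differences between lists were not tested, since each condition has 1 list and the lists differ in length.

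Several of these RNAs have many copies in the genome, which limits where reads can be placed. The 5 U6 genes were at least 99.1% identical to each other over 107 bp, while the 80 bases upstream were only 47.0 to 71.4% identical. Words of 50 bases were counted in hg38 on both strands, leaving out alternate sequences. None of the 58 words within a U6 gene was unique, with a median of 17.5 copies. RN7SL1 and RN7SL2 were 98.3% identical, and 15.6% and 13.1% of their words were unique. In RN7SK it was 22.9%. In RMRP and RPPH1 all words of the gene were unique. Upstream, from 300 bases before to the start, at least 90.4% of words were unique in each of the 10 genes.

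**Figure D4:**
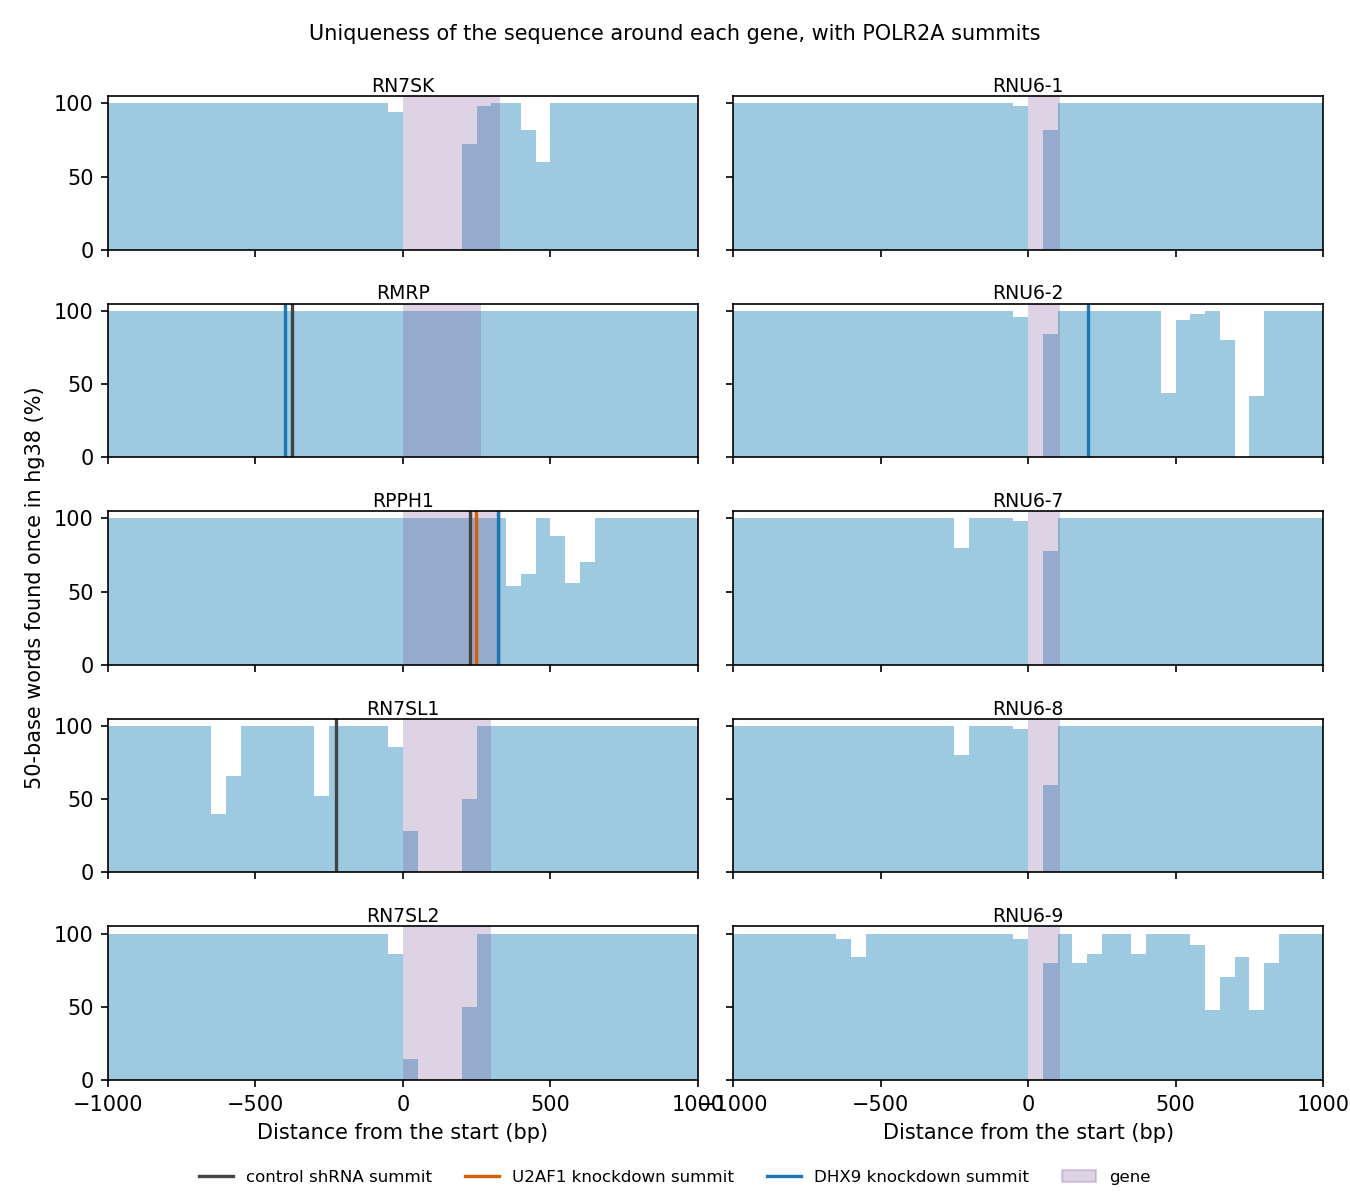
For each gene, bars give the percentage of 50-base words found once in hg38 in bins of 50 bp around the start (0 bp), purple shading marks the gene, and vertical lines mark POLR2A summits in the colour of the list. The summits lie where words are unique, and the U6, 7SL and 7SK genes are gaps in uniqueness that RMRP and RPPH1 do not have.

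The 50-base word at each of the 7 summits was found once in the genome. At the RNA polymerase II small nuclear RNA genes, 12 of 16 summits had such a word in the control. It was 14 of 17 after U2AF1 knockdown and 10 of 16 after DHX9 knockdown. Summits on repeated words were present in the lists, at 13.6% in the control, 20.7% in the U2AF1 knockdown and 8.2% in the DHX9 knockdown list. How the authors treated reads with several placements is not given in the sources used here. None of the 1271 other U6 copies had a peak in any list. Among 970 named 7SL and 7SK copies, 2 had one in the control, 2 in the U2AF1 knockdown and 3 in the DHX9 knockdown list, all with a coding transcript start in the window. Of the U6, 7SL and 7SK copies together, 82 had such a start, and 2.44%, 2.44% and 3.66% of these had a peak. For all non-coding gene starts with a coding start in the window, the shares were 13.0%, 6.88% and 20.3%.

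The proteins that make these RNAs or bind them are encoded by RNA polymerase II genes, of which 73 were listed. A peak was present at 20 of them in the control, 10 in the U2AF1 knockdown and 26 in the DHX9 knockdown list. Of 32 genes of RNA polymerase III and its factors, 8, 4 and 9 had one. POLR3D, a subunit gene, had the highest place in the control list, rank 107, and SNAPC4, a SNAPc subunit gene, in both knockdown lists, ranks 490 and 347. Of 7 genes of the 7SK particle, 3, 2 and 4 had a peak: HEXIM1 ranked 506, 661 and 118 and MEPCE, the capping enzyme of 7SK, ranked 214, 742 and 251. HEXIM1 and MEPCE thus had a peak within 1000 bp in every list and RN7SK in none. The HEXIM1 summits lay 53, 30 and 64 bp downstream of its start, and the MEPCE summits 558, 473 and 589 bp. Of 11 protein genes of RNase P and MRP, 2, 1 and 6 had a peak, with RPP25 at ranks 1670, 378 and 417. Of 6 signal recognition particle genes, 3, 1 and 3 had one, with SRP68 at ranks 1907, 462 and 266. Of 17 U6 particle genes, 4, 2 and 4 had one, with LSM7 at rank 312 in the U2AF1 knockdown and 938 in the DHX9 knockdown list. These counts stand beside the 11.0%, 5.6% and 18.0% of all protein-coding gene starts, and no test was made of them.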

How the data were processed

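POLR2A ChIP-seq peak lists of 3 conditions were used, 1 list for both ChIP replicates of a condition per the labels. The names of the control peaks read as replicate 1, so it is not known whether that list rests on 1 library or both. Bowtie2 2.4.5, MACS2 2.2.7.1, deepTools 3.5.1 and build hg38 are named in the submitters' processing notes, with no role or setting. The authors deposited fold enrichment as a ratio, −log10 p and −log10 q for each peak, and a browser score that was not used, in narrowPeak format. The background of the fold is not given in the sources used here. All peaks lay within sequences of hg38.

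Summits, the peak start plus the deposited offset, were matched to gene starts of GENCODE version 44 within 1000 bp, counting from 1, with Python 3.11.15 and pandas 2.3.3. The search was tested on simulated data. Background shares of peaks used all 62700 genes, and those of motifs 62690. Sequences came from hg38, identities from global alignment in Biopython 1.88. The promoter table had 0 entries for these genes. The tRNA list in the closing section was added after the data were seen. All 10 genes were named, and from each other list the 3 highest peaks at most. No test was made, since each condition has 1 list. The members, lists and motifs were chosen with earlier results of these data known. Alternatives were other windows, peak intervals, transcript starts, −log10 q of at least 5, equal list lengths, ranking by −log10 p, and chromosomes 1 to 22 and X.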

Additional observations from a re-analysis of the deposited data

How the results depend on the processing

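No paired analysis was possible because the replicates of a condition share a single list of peaks. For the same reason no replicate was left out in turn. The number of genes with a peak stayed within 1.5 times in 21 of 24 alternative counts. Keeping peaks with a −log10 q of at least 5 gave 0 genes after U2AF1 knockdown, where RPPH1 was lost. The same limit left RPPH1 and RN7SL1 in the control and RMRP and RNU6-2 after DHX9 knockdown, so RPPH1 then had a peak in the control only. Cutting every list to its top 1730 peaks by −log10 p gave 1 gene after DHX9 knockdown, RMRP. It was 1 in the control list when the peak had to overlap the gene itself, an alternative chosen after seeing the data, where RPPH1 was left. Windows of 500 and 2000 bp gave the same genes in every list.

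The share of all gene starts with a peak followed the rule used, by construction for narrower or wider windows and for fewer peaks. Giving the control first, then U2AF1 and DHX9 knockdown, it was 4.32%, 2.27% and 6.98% within 500 bp, 5.47%, 2.97% and 8.86% within 2000 bp, 5.56%, 3.05% and 9.1% with any transcript start, and 3.69%, 1.7% and 5.45% with a −log10 q of at least 5. It was 3.24% in the control and 3.38% in the DHX9 knockdown list with equal list lengths, and 8.33% in the DHX9 knockdown list with peak intervals in place of summits. Ranks moved past a 95% binomial interval, taken as if the rank were a count out of the list length, in 10 of 32 alternatives. That interval is a yardstick of size only and measures no sampling error of a rank. Ranking by −log10 p placed RPPH1 at 1320 in the control and 3817 in the DHX9 knockdown list.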

Other observations

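Among other RNA polymerase III genes, peaks were frequent at the 5S genes in the knockdown lists. The 5S ribosomal RNA genes, whose promoters are internal, form an array at chr1:228610268-228646158 with 17 annotated genes. A summit lay within 1000 bp of the start of 1 of them in the control, 16 in the U2AF1 knockdown and 15 in the DHX9 knockdown list. Of all annotated gene starts, 4.99%, 2.69% and 8.07% had a peak in these lists. The 5S genes share an array, so their counts are not separate observations. The array held 1, 26 and 23 peaks in these lists. Their fold enrichment was low, 2.3 for the control peak, 1.94 to 3.73 in the U2AF1 knockdown and 1.95 to 3.49 in the DHX9 knockdown list, and their ranks began at 1366 of 1730 and 4118 of 4443 in the knockdown lists. By −log10 p they stood higher, up to rank 198 and 443, and the control peak had rank 927 of 2757. No summit taken as the highest at a 5S gene had a unique 50-base word. Differences between the lists were not tested.

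The 3 Y RNA genes found, the 4 vault RNA genes, RNU6ATAC and BCYRN1 had no peak in any list. Of 443 nuclear tRNA genes of RefSeq (GRCh38.p14), taken from the middle of the gene, 5 had a summit within 1000 bp in the control, 9 in the U2AF1 knockdown and 21 in the DHX9 knockdown list. These are 1.13%, 2.03% and 4.74%, where 4.99%, 2.69% and 8.07% of all annotated gene starts had a peak. Without a coding transcript start in that window there were 388 tRNA genes, of which 1, 7 and 14 had a summit. For all non-coding gene starts without one, the shares were 0.635%, 0.522% and 0.972%. With a coding transcript start there were 55 tRNA genes, of which 4, 2 and 7 had a summit. The lists differ in length, and differences between them were not tested.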
